A study of Homo sapiens with 18 samples.

Results

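The genes described are 10 integrin subunits, chosen by their gene symbols: the alpha subunits ITGA2, ITGA3, ITGA5, ITGA6 and ITGAV, and the beta subunits ITGB1, ITGB3, ITGB4, ITGB5 and ITGB8. All 10 were listed in both deposited expression tables, which together hold 16715 genes, 15358 of them in MCF10A and 15257 in hTERT RPE-1. RNAseq of polyadenylated RNA was carried out on 18 libraries after 72 h of treatment with 30 nM of a non-targeting siRNA (siNT) or of a mimic of hsa-miR-28-5p or of its MIR-28 family relative hsa-miR-708-5p (miR-28 and miR-708 below). A mimic is a transfected RNA duplex that supplies the mature microRNA, and its effect was compared with that of siNT. Each line had 3 libraries per treatment, labelled as biological replicates 7, 8 and 9 in MCF10A, a near-normal human breast epithelial line, and 1, 2 and 3 in hTERT RPE-1, a human retinal pigment epithelial line immortalised with telomerase. The mimics were added transiently, and each tissue was represented by 1 line. Values are normalised expression values, which are estimated read counts divided by a scaling factor of each library, and the lines were scaled separately.

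Integrins are cell surface receptors made of an alpha and a beta subunit, and the pair decides which matrix protein is bound. ITGB1 pairs with many alpha subunits to bind collagen, laminin or fibronectin, whereas ITGAV pairs with ITGB1, ITGB3, ITGB5 or ITGB8 to bind proteins with an RGD motif or, with ITGB8, to activate latent TGF-β. ITGB4 pairs with ITGA6 alone, and in basal epithelial cells this pair anchors keratin filaments to laminin at hemidesmosomes. In bulk RNA, fewer cells of a type and less RNA per cell cannot be told apart.

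A microRNA pairs through its seed, bases 2 to 8, with matches in the 3′ untranslated regions (3′ UTRs) of messenger RNAs, so the mimic and the members' matches are shown first. The mature hsa-miR-708-5p sequence (RefSeq, GRCh38.p14, chr11:79402077-79402099, minus strand) is printed with its seed in capitals, and hsa-miR-28-5p is named only. The longest 3′ UTR of each member (GENCODE 44, hg38) was searched on the transcript strand for GCTCCT, the match to bases 2 to 7, and a match was called a 7mer when it was preceded by A, which pairs with base 8, or followed by A.
hsa-miR-708-5p: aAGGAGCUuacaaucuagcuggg
ITGA5 site, chr12:54396167-54396195, minus strand: ggccagggagaAGCTCCTctccccagccc
ITGB3 site, chr17:47310438-47310466, plus strand: ctgataagctgAGCTCCTtagcctttgtc
ITGB8 site, chr7:20410034-20410062, plus strand: tgttaataattGCTCCTAaagattataat
ITGA6 site, chr2:172504408-172504435, plus strand: cgtagcctaagGCTCCTgttttgcacag
Capitals in the sites mark the seed match with, for ITGA5 and ITGB3, the A before it and, for ITGB8, the A after it. Thus 3 of the 10 members held a 7mer, ITGA6 held the 6-base match only, and the other 6 held neither in this UTR, beside 20.4% with a 7mer or longer and 17.9% with the 6-base match only among the 12922 tested MCF10A genes that have an annotated 3′ UTR. With any annotated 3′ UTR, ITGB1 also held a 7mer. A match is a description of letters, and binding was not tested here.

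The value of 1 read was estimated from the spacing of low values in each library. By that estimate the summed values stood for 19.4 to 31.6 M reads in the 9 MCF10A libraries. In the 9 hTERT RPE-1 libraries they stood for 23.7 to 40.3 M, and 3 reads correspond to values of at most 4.42. RPS28, a ribosomal protein gene used here as the check of the mimics, was lower with both mimics in each line, with log2 fold changes of -2.79 and -2.65 in MCF10A. In hTERT RPE-1 they were -4.47 and -4.40. Ribosomal RNA genes took 3.41 to 7.88% of the values except in the miR-28 replicate 1 library of hTERT RPE-1, where they took 16.7%. All 10 basal breast markers were listed in MCF10A, with summed values of 232329 to 253753 for siNT, 157137 to 170840 with miR-28 and 131634 to 161012 with miR-708. In hTERT RPE-1, 7 of the 10 retinal pigment epithelial markers were listed but RPE65, TYR and TTR were not. Only 3 averaged 100 or more. RLBP1 averaged 9.36 with 2 of 9 libraries at or under 3 reads, and LRAT 4.94 with 3. The sum was 2945 to 3785 for siNT, 1946 to 2081 with miR-28 and 2117 to 2279 with miR-708. In MCF10A 6 of these 10 were listed, with sums of 2249 to 2257, 2126 to 2817 and 2169 to 2278 in that order. BEST1 (971) and LRAT (950) had the highest means in MCF10A. The 4 basal markers listed in hTERT RPE-1 (TP63, CDH3, LAMB3 and S100A2, while the keratins, CDH1 and EPCAM were not) summed to 473 to 509, 522 to 901 and 1116 to 1281 in that order, mostly through LAMB3 (mean 590). All 10 mesenchymal markers were listed there, with sums of 1269540 to 2005140, 1454820 to 1861640 and 941995 to 1084800 in that order. FN1 alone averaged 1235820 there, so these sums mostly follow FN1. Of the immune markers 4 of 10 were listed, PTPRC at most 11.4, and their sum went from 642 to 744 for siNT to 717 to 3937 and to 4972 to 7467, mostly through CD68, a lysosomal protein gene. In MCF10A 8 of the 10 mesenchymal markers (not COL1A2 and THY1) summed to 24908 to 42286, 23840 to 67738 and 39851 to 90590, with the highest mean for FN1 (31050). There 6 of the 10 immune markers (PTPRC and CD3E were not among them) summed to 702 to 962, 806 to 1143 and 1270 to 1453. The part of these markers in the results below was not tested.

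Levels of different subunits were compared as values per kb of the longest annotated transcript, with siNT alone. In MCF10A, ITGB1 (5444 ± 319.3, SD, n = 3) and ITGA6 (5066 ± 671) stood first with overlapping libraries. ITGB4 (1596 ± 238), the hemidesmosome subunit, came next, followed by ITGB8 (1151 ± 154) and ITGA3 (1003 ± 48.9), which overlapped. ITGA2 (710 ± 170) and ITGA5 (692 ± 34.5) also overlapped. ITGAV (527 ± 38.1) had the next mean, and its libraries overlapped those of ITGA2 but not those of ITGA5. Then came ITGB5 (374 ± 10.6), and ITGB3 was last at 1.63 ± 0.67. This order depends on the length: per kb of the union of all annotated exons, ITGA6 (4412 ± 584) stood above ITGB1 (2099 ± 123), ITGA2 (706) above ITGB8 (681) and ITGA3 (561), and ITGB5 (255) above ITGAV (217).

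The order in hTERT RPE-1 was different, with ITGB1 (31668 ± 2333 per kb) ahead of ITGA5 (11025 ± 1197), the fibronectin receptor subunit. ITGA3 (6329 ± 424), ITGB5 (6324 ± 336) and ITGAV (5454 ± 1052) followed with overlapping libraries. All the others were far lower, from ITGA6 (410 ± 96.7) and ITGB8 (271 ± 66.1), which overlapped, to ITGB3 (153 ± 34.0), ITGA2 (153 ± 42.3) and ITGB4 (152 ± 18.9), which could not be put in order. With union lengths ITGB1 and ITGA5 were still the first and ITGB5 (4310 ± 229) stood above ITGA3 (3538 ± 237). ITGA11, a collagen receptor subunit that is not a member, reached 13655 per kb in hTERT RPE-1 with siNT, so that the members do not hold all of that line's alpha chains. The plot of values by library shows the members in all 18 libraries.

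**Figure D1:**
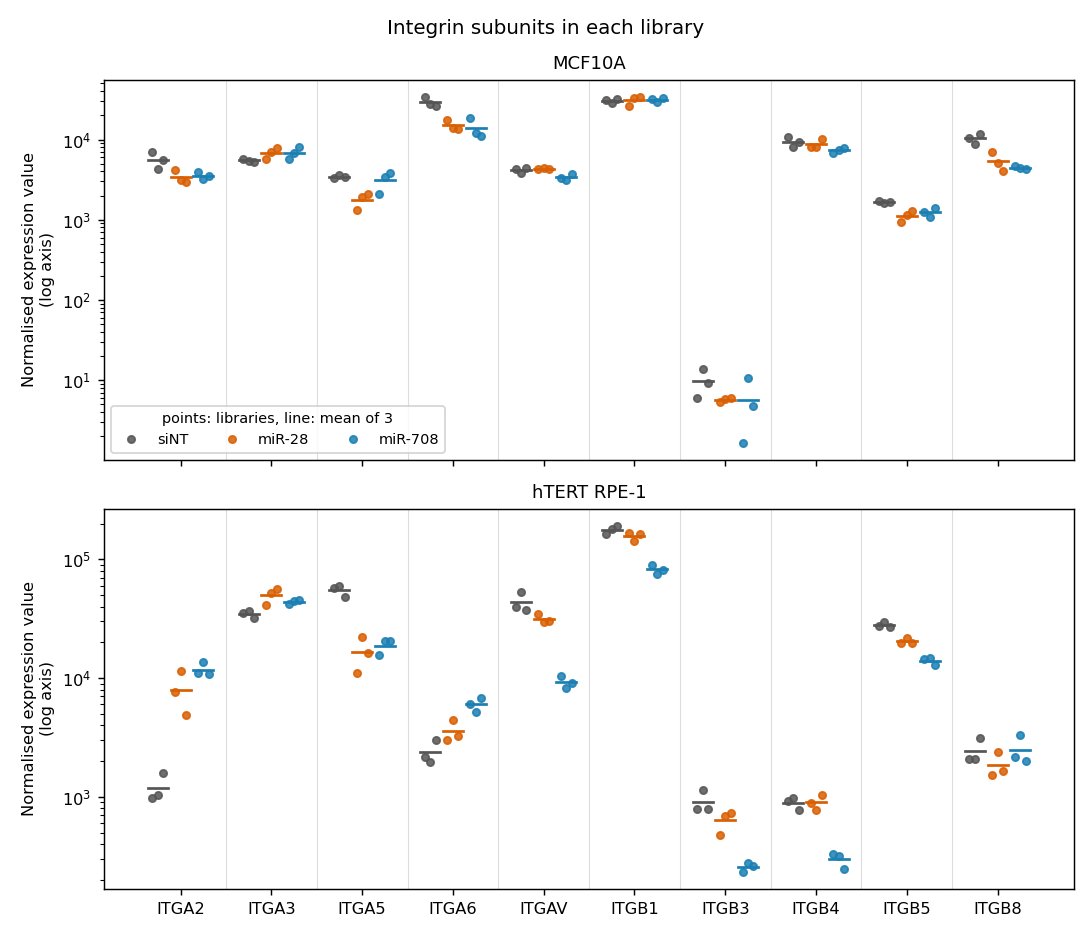
Normalised expression value (log axis) of each integrin subunit in every library of MCF10A (top) and hTERT RPE-1 (bottom); points are libraries, coloured by treatment, and lines are means of 3. ITGA2 and ITGA6 lie lower with the mimics in MCF10A and higher in hTERT RPE-1, and ITGB3 lies under 14 in every MCF10A library.

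ITGA2 encodes the alpha chain of the main epithelial collagen receptor (chr5:52989340-53094779 in hg38, plus strand). In MCF10A its values were 6916, 4252 and 5546 with siNT, 4123, 3097 and 2964 with miR-28, and 3915, 3212 and 3474 with miR-708. In hTERT RPE-1 they were 977, 1036 and 1579 with siNT, 7615, 11412 and 4920 with miR-28, and 10965, 13574 and 10862 with miR-708. Every mimic library lay below every siNT library in MCF10A and above every siNT library in hTERT RPE-1. ITGA2 fell in MCF10A, with log2 fold changes of -0.70 (SE 0.17, adjusted p = 0.0152 by limma) for miR-28 and -0.63 (adjusted p = 0.0166) for miR-708, and rose in hTERT RPE-1 by 6.44-fold (log2 2.69, SE 0.27, adjusted p = 3.12e-05) and 10-fold (log2 3.33, adjusted p = 3.23e-06). The MCF10A calls were lost, with the direction kept, on leaving out any of several libraries. With miR-28 adjusted p was 0.0528 without siNT replicate 7 (log2 -0.53), 0.060 without miR-28 replicate 8 and 0.0580 without miR-28 replicate 9. With miR-708 it was 0.0636 without siNT replicate 7 (log2 -0.46), 0.0644 without miR-708 replicate 8 and 0.0525 without miR-708 replicate 9. Each such fit also had fewer libraries. The summed basal breast markers were lower in the same MCF10A mimic libraries. In hTERT RPE-1 the sum of the 4 listed was higher in the mimic libraries, mostly through LAMB3 (219 to 1121 across the libraries). The median log2 fold change of these 4 was 0.04 with miR-28 and -0.64 with miR-708, so they did not rise together. The part of the basal markers in the ITGA2 and ITGA6 values was not tested.

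ITGA6, the alpha chain of the laminin receptors with ITGB1 and with ITGB4 (chr2:172427354-172506459, plus strand), moved the same way. Its MCF10A values were 33893, 27978 and 26527 with siNT, 17544, 14089 and 13716 with miR-28, and 18764, 11939 and 11092 with miR-708. In hTERT RPE-1 the values were 2176, 1953 and 3019 with siNT, 2983, 4431 and 3243 with miR-28, and 6065, 5191 and 6748 with miR-708. The mimic libraries lay wholly below siNT in MCF10A, while in hTERT RPE-1 the miR-708 libraries lay wholly above siNT and the miR-28 libraries overlapped it. ITGA6 fell in MCF10A to 51.3% of siNT with miR-28 (log2 -0.96, SE 0.19, adjusted p = 0.00552) and to 47.3% with miR-708 (log2 -1.11, adjusted p = 0.00139). It rose in hTERT RPE-1 by 1.5-fold with miR-28 (log2 0.58, SE 0.18, adjusted p = 0.0241) and by 2.55-fold with miR-708 (log2 1.35, adjusted p = 0.000102). The 1.5-fold rise was lost without siNT replicate 1 (log2 0.53, adjusted p = 0.0796), siNT replicate 2 (0.45, adjusted p = 0.0972) or miR-28 replicate 2 (0.41, adjusted p = 0.0761), and without the trended variance (adjusted p = 0.0503). An antisense gene, ITGA6-AS1, overlaps ITGA6, and whether the counting used strand is not given in the sources used here.

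ITGA3, the alpha chain of a laminin receptor with ITGB1 (chr17:50055968-50090481, plus strand), had higher mean values with the mimics in both lines. The MCF10A libraries held 5790, 5440 and 5264 with siNT, 5713, 6914 and 7796 with miR-28, and 5668, 6709 and 7994 with miR-708, and the groups overlapped. The hTERT RPE-1 values were 35027, 36807 and 32199 with siNT, 40925, 52447 and 55865 with miR-28, and 41693, 44608 and 45805 with miR-708, so that all mimic libraries were above siNT. The MCF10A log2 fold changes of 0.30 and 0.29 did not pass the test (adjusted p = 0.147 and 0.133), with 95% intervals of -0.01 to 0.61 and -0.02 to 0.60. ITGA3 rose in hTERT RPE-1 with miR-28 (log2 0.51, SE 0.14, adjusted p = 0.0108) and with miR-708 (log2 0.35, adjusted p = 0.0459). That last call was lost on leaving out any of the siNT or miR-708 libraries, with log2 fold changes of 0.29 to 0.39 and adjusted p of 0.0977, 0.0626 and 0.128 without siNT replicates 1, 2 and 3 and of 0.0637, 0.0945 and 0.124 without miR-708 replicates 1, 2 and 3. In MCF10A the miR-708 difference was called without miR-708 replicate 7 (log2 0.41, adjusted p = 0.0336) or when values were scaled by library size (0.43, adjusted p = 0.0360).

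ITGA5 encodes the alpha chain of the fibronectin receptor (chr12:54395261-54419266, minus strand) and holds the 7mer printed above. MCF10A values were 3296, 3638 and 3433 with siNT, 1339, 1900 and 2102 with miR-28, and 2121, 3367 and 3843 with miR-708. The miR-28 libraries were below all siNT libraries, whereas the miR-708 libraries ranged from below to above them. Values in hTERT RPE-1 were 57518, 59458 and 48268 with siNT, 11028, 22307 and 16401 with miR-28, and 15635, 20438 and 20357 with miR-708, with no overlap between siNT and either mimic. ITGA5 fell in hTERT RPE-1 to 30.1% of siNT (log2 -1.78, SE 0.22, adjusted p = 0.000126) with miR-28 and to 34.1% (log2 -1.56, adjusted p = 0.000144) with miR-708. In MCF10A it fell to 51.5% with miR-28 (log2 -0.98, SE 0.21, adjusted p = 0.00738), and the miR-708 difference of -0.19 did not pass (adjusted p = 0.507), turning to 0.06 without miR-708 replicate 7.

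ITGAV, the alpha chain of the RGD-binding receptors (chr2:186590010-186680901, plus strand), had no seed match in the longest 3′ UTR. It measured 40018, 52879 and 37193 with siNT in hTERT RPE-1, 34886, 29440 and 30512 with miR-28, and 10426, 8244 and 9181 with miR-708. The miR-708 libraries were thus the lowest, with the miR-28 libraries between them and siNT and no overlap among the 3 groups. ITGAV fell to 21.4% of siNT with miR-708 (log2 -2.21, SE 0.15, adjusted p = 8.54e-07), the furthest fall of the 10 members in that comparison, and to 72.9% with miR-28 (log2 -0.44, adjusted p = 0.0303). The miR-28 call was lost without siNT replicate 2 (log2 -0.29, adjusted p = 0.118), miR-28 replicate 2 (-0.39, adjusted p = 0.0743) or miR-28 replicate 3 (-0.42, adjusted p = 0.0804).

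ITGAV values in MCF10A were 4342, 3838 and 4383 with siNT, 4266, 4432 and 4306 with miR-28, and 3335, 3116 and 3712 with miR-708. Only the miR-708 libraries lay wholly below siNT. ITGAV fell there by 0.31 on the log2 scale (SE 0.09, adjusted p = 0.0280), and its miR-28 difference was 0.05 (adjusted p = 0.722). The fall was not called without siNT replicate 7 (log2 -0.28, adjusted p = 0.0858), siNT replicate 9 (-0.27, adjusted p = 0.0995) or miR-708 replicate 8 (-0.25, adjusted p = 0.112). It also missed the threshold under library size scaling (-0.16, adjusted p = 0.212), under upper quartile scaling (-0.26, adjusted p = 0.0507) and without the trended variance (adjusted p = 0.0539).

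ITGB1, the common partner of the collagen, laminin and fibronectin alpha chains (chr10:32887273-33005792, minus strand), had the highest value per kb of the members in hTERT RPE-1 with either length, and in MCF10A with the longest transcript but not with the union of exons. Its hTERT RPE-1 values were 164360, 178466 and 190523 with siNT, 167971, 141916 and 163893 with miR-28, and 89901, 75457 and 81200 with miR-708. The miR-28 libraries overlapped siNT and every miR-708 library was below both other groups. ITGB1 fell to 46.2% of siNT with miR-708 in hTERT RPE-1 (log2 -1.11, SE 0.16, adjusted p = 0.000156), and its difference with miR-28 was -0.17 (95% interval -0.53 to 0.18, adjusted p = 0.405). In MCF10A the 9 libraries ran from 26129 to 33445 with all groups overlapping, and the log2 differences were -0.000623 (95% interval -0.29 to 0.29, adjusted p = 0.998) with miR-28 and 0.04 (-0.25 to 0.33, adjusted p = 0.839) with miR-708.

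ITGB4, the hemidesmosome partner of ITGA6 (chr17:75721328-75757818, plus strand), showed a similar contrast between the mimics in hTERT RPE-1. Values there were 925, 987 and 770 with siNT, 883, 778 and 1034 with miR-28, and 330, 318.7 and 245 with miR-708, of which only the last lay apart. ITGB4 fell to 33.3% of siNT with miR-708 (log2 -1.59, SE 0.15, adjusted p = 9.58e-06), against 0.01 (adjusted p = 0.982) with miR-28. The MCF10A values were 10894, 8098 and 9238 with siNT, 8151, 8020 and 10022 with miR-28, and 6764, 7430 and 7935 with miR-708. All miR-708 libraries were below all siNT libraries in MCF10A, but the difference of -0.34 (SE 0.13) did not pass (adjusted p = 0.0637). It was called with the replicate number as a block (-0.34, adjusted p = 0.0357) and without siNT replicate 8 (-0.45, adjusted p = 0.0372), whereas the miR-28 difference of -0.10 was not (adjusted p = 0.593) and became 0.01 when scaled by library size.

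ITGB3, a vitronectin receptor partner of ITGAV (chr17:47253827-47313743, plus strand), was near its detection limit in MCF10A, with values from 1.67 to 13.9, and was not tested there. In hTERT RPE-1 it measured 795, 1145 and 795 with siNT, 477, 695 and 734 with miR-28, and 234.6, 275 and 261 with miR-708. The 3 groups did not overlap and were lowest with miR-708. ITGB3 fell to 28.2% of siNT with miR-708 (log2 -1.80, SE 0.19, adjusted p = 1.60e-05) and to 69.7% with miR-28 (log2 -0.52, adjusted p = 0.0394). The latter call was lost without siNT replicate 2 (log2 -0.35, adjusted p = 0.157) and without the miR-28 replicate 1 library that held 16.7% ribosomal RNA (-0.33, adjusted p = 0.122). It was lost too without miR-708 replicate 1, 2 or 3, which share the variance estimate (adjusted p = 0.0509, 0.0510 and 0.0528), under library size scaling (-0.44, adjusted p = 0.0862) and without the trended variance (adjusted p = 0.0645). ITGB3 overlaps a readthrough gene on the same strand, so that reads could be shared between them.

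ITGB5, the other vitronectin receptor partner of ITGAV (chr3:124761948-124901418, minus strand), was called lower in each of the 4 comparisons with siNT. In MCF10A its values were 1712, 1619 and 1655 with siNT, 928, 1134 and 1286 with miR-28, and 1232, 1087 and 1393 with miR-708. In hTERT RPE-1 they were 27685, 29727 and 26823 with siNT, 19805, 21587 and 19927 with miR-28, and 14487, 14655 and 12809 with miR-708. No mimic library reached the siNT range in either line. ITGB5 fell in MCF10A by 0.59 (SE 0.13, adjusted p = 0.00909) with miR-28 and by 0.43 (adjusted p = 0.0249) with miR-708 on the log2 scale, and in hTERT RPE-1 by 0.46 (SE 0.10, adjusted p = 0.00311) and 1.01 (adjusted p = 9.89e-06). The miR-708 call in MCF10A was lost without siNT replicate 7 (log2 -0.41, adjusted p = 0.0703), siNT replicate 8 (-0.45, adjusted p = 0.0529), siNT replicate 9 (-0.44, adjusted p = 0.0642) or miR-708 replicate 8 (-0.34, adjusted p = 0.102), under library size scaling (-0.29, adjusted p = 0.102) and without the trended variance (adjusted p = 0.0538).

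ITGB8, the ITGAV partner that activates latent TGF-β (chr7:20330702-20415754, plus strand), holds the 7mer close to the start of its 3′ UTR that is printed above. MCF10A values were 10431, 8893 and 11652 with siNT, 6962, 5108 and 4088 with miR-28, and 4611, 4416 and 4276 with miR-708, with both mimics wholly below siNT. ITGB8 fell there to 52.2% of siNT (log2 -0.96, SE 0.17, adjusted p = 0.00305) with miR-28 and to 42.9% (log2 -1.21, adjusted p = 0.000396) with miR-708. The hTERT RPE-1 libraries held 2086, 2089 and 3114 with siNT, 1520, 2377 and 1662 with miR-28, and 2159, 3334 and 2006 with miR-708. These groups overlapped, and the log2 differences of -0.39 (95% interval -0.90 to 0.12, adjusted p = 0.185) and 0.03 (-0.48 to 0.54, adjusted p = 0.918) did not pass the test.

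**Figure D2:**
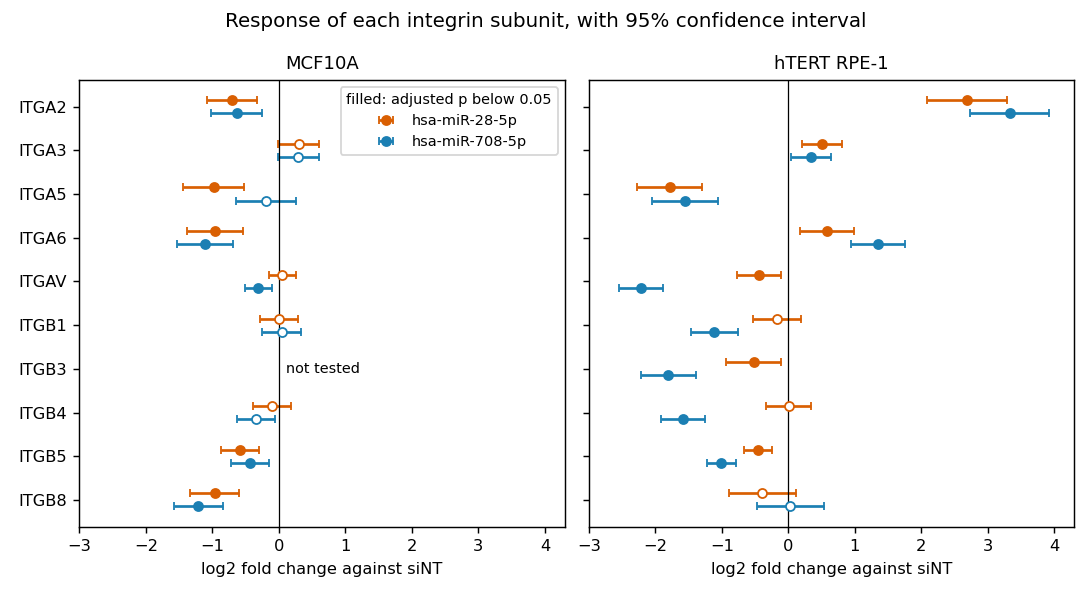
Log2 fold change against siNT of each integrin subunit with miR-28 (orange) and miR-708 (blue) in MCF10A (left) and hTERT RPE-1 (right); bars are 95% confidence intervals and filled points have an adjusted p below 0.05. In hTERT RPE-1 ITGA2 reaches 3.33 and ITGAV -2.21 with miR-708, while all called points in MCF10A lie below 0.

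With miR-28 in MCF10A, 0 of the 9 tested members were called higher and 5 lower, where 10.7% of all tested genes were higher and 12% lower. The counts with miR-708 were 0 higher and 5 lower of 9, against 15.5% and 17.3% of all genes. These fits did not use the replicate numbers. With the replicate number as a block, 5 members were called with miR-28 and 6 with miR-708, where ITGB4 was added. The block called 4408 and 5818 of all 14726 genes, against 3347 and 4835 without it. In hTERT RPE-1, 3 of 10 members rose and 4 fell with miR-28 (all genes 23.3% and 23.5%), and 3 rose and 6 fell with miR-708 (all genes 30.9% and 31.2%). The members' median log2 fold changes were -0.59 and -0.34 in MCF10A, then -0.28 and -1.06 in hTERT RPE-1, with the median of all tested genes within 0.01 of 0 each time. Scaled by library size instead, the median of all genes moved to 0.32 with miR-708 in hTERT RPE-1 and to at most 0.14 in the other 3 comparisons, and no called member changed direction. Both mimics were compared with the same siNT libraries in each line, so their calls are not independent. The 5 lower in MCF10A were ITGA2, ITGA5, ITGA6, ITGB5 and ITGB8 with miR-28, and ITGA2, ITGA6, ITGAV, ITGB5 and ITGB8 with miR-708. In hTERT RPE-1 the 4 that fell with miR-28 were ITGA5, ITGAV, ITGB3 and ITGB5, the 6 that fell with miR-708 were these with ITGB1 and ITGB4, and the 3 that rose were ITGA2, ITGA3 and ITGA6 with each mimic. Without siNT replicate 2 the hTERT RPE-1 count for miR-28 was 4 of 10, and in MCF10A the miR-708 count was 2 of 9 without siNT replicate 7 or without miR-708 replicate 8 and 3 of 9 without siNT replicate 9. Fewer of all genes were called in these fits too. In hTERT RPE-1 with miR-28 the number went from 6798 to 5471. In MCF10A with miR-708 it went from 4835 to 3756, 3421 and 3639 without these libraries in that order.

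The mimics were also compared with each other. In hTERT RPE-1, 6 of 10 members differed between them (21.2% of all tested genes did), and 5 of these were lower with miR-708. ITGAV differed by -1.77 on the log2 scale (SE 0.15, adjusted p = 0.000143), ITGB4 by -1.59 (adjusted p = 0.000251), ITGB3 by -1.28 (adjusted p = 0.00180), ITGB1 by -0.94 (adjusted p = 0.00345) and ITGB5 by -0.55 (adjusted p = 0.00393). For each of these 5 genes all miR-708 libraries lay below all miR-28 libraries. ITGA6 was higher with miR-708 by 0.77 (adjusted p = 0.0149), a call lost without miR-28 replicate 3 (0.71, adjusted p = 0.060) or miR-708 replicate 3 (0.68, adjusted p = 0.0664). ITGA2 (0.64, 95% interval 0.04 to 1.24, adjusted p = 0.117), ITGA3 (-0.16, -0.47 to 0.14), ITGA5 (0.23, -0.26 to 0.72) and ITGB8 (0.42, -0.09 to 0.93) did not pass, and ITGA2 did without miR-28 replicate 2 (0.94, adjusted p = 0.0112).

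In MCF10A 0 of 9 members differed between the mimics by limma, where 1.55% of all tested genes did. With the replicate number as a block 2 members were called by limma, ITGA5 and ITGAV (adjusted p = 0.00281 and 0.0464). That fit called 643 of all 14726 genes, against 228 without the block. Whether replicate numbers pair the mimics in MCF10A was not settled. ITGA5 was 0.79 higher with miR-708 (95% interval 0.33 to 1.24, adjusted p = 0.106 by limma), with every miR-708 library above every miR-28 library, and it was called without miR-708 replicate 7 (1.04, adjusted p = 0.00870). ITGAV was 0.36 lower on the log2 scale (difference -0.36, 95% interval -0.57 to -0.15, adjusted p = 0.104 by limma). For the remaining 7 members the differences ran from -0.25 to 0.15, with 95% intervals that reached from -0.61 at the lowest to 0.45 at the highest.

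Each member's response was then set against its response in the other line, as the difference of the log2 fold changes, hTERT RPE-1 minus MCF10A. With miR-28 3 of the 9 members tested in both lines differed, beside 23.4% of all genes, and with miR-708 8 of 9 did, beside 39.8%. ITGA2 and ITGA6 had opposite directions in the lines with both mimics, with differences of 3.39 (SE 0.32, adjusted p = 1.77e-06) and 1.54 (adjusted p = 0.000355) for miR-28 and of 3.96 (adjusted p = 7.58e-08) and 2.46 (adjusted p = 5.46e-07) for miR-708. With miR-708 the difference was negative for ITGAV (-1.91, adjusted p = 3.39e-07), ITGA5 (-1.36, adjusted p = 0.00127), ITGB4 (-1.24, adjusted p = 5.82e-05), ITGB1 (-1.16, adjusted p = 0.000190) and ITGB5 (-0.57, adjusted p = 0.00775), of which ITGA5, ITGB4 and ITGB1 had no called fall in MCF10A. ITGB8 differed the other way (1.24, adjusted p = 0.00181), with a fall in MCF10A and no call in hTERT RPE-1. The ITGB5 difference was lost under library size scaling (-0.40, adjusted p = 0.0609).

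With miR-28 the third called difference was that of ITGAV (-0.49, adjusted p = 0.0483). It was lost on leaving out any library of either line that it was computed from except the miR-28 replicate 1 and siNT replicate 3 libraries of hTERT RPE-1, with adjusted p of up to 0.162, without siNT replicate 2 of hTERT RPE-1 (-0.34). Leaving out miR-708 replicate 1 or 3 of hTERT RPE-1, which share the variance estimate, the unfiltered table and the fit without the trended variance also lost it (adjusted p = 0.0525, 0.0654, 0.0501 and 0.0714). ITGA5 was near the threshold (-0.80, adjusted p = 0.0596) and was called with the replicate number as a block (adjusted p = 0.0103). It was called too without miR-28 replicate 7 of MCF10A (-1.0, adjusted p = 0.0211), miR-708 replicate 7 of MCF10A (adjusted p = 0.0334) or miR-28 replicate 2 of hTERT RPE-1 (-1.05, adjusted p = 0.0110). ITGB8 (0.57, adjusted p = 0.152) was called without miR-28 replicate 7 of MCF10A (0.78, adjusted p = 0.0443). ITGA3 passed with neither mimic (0.21, 95% interval -0.19 to 0.62 and 0.05, -0.35 to 0.46).

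**Figure D3:**
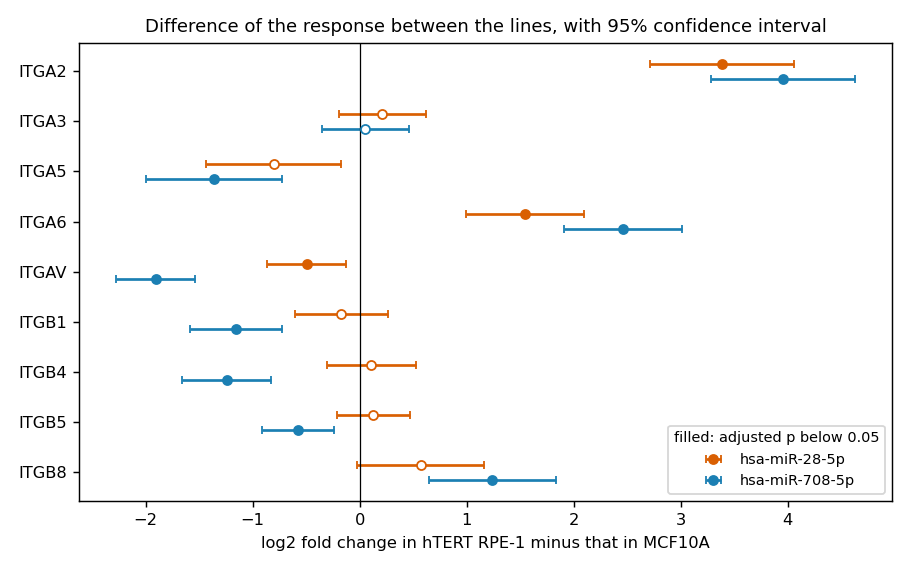
Difference between the lines in the log2 fold change against siNT, hTERT RPE-1 minus MCF10A, for the 9 members tested in both, with 95% confidence intervals and filled points at an adjusted p below 0.05. ITGA2 and ITGA6 lie right of 0 with both mimics, and ITGA5, ITGAV, ITGB1, ITGB4 and ITGB5 left of 0 with miR-708.

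The make-up of the subunit pool was described as the share of each gene in the summed values per kb of the 5 alpha or the 5 beta members. The alpha sum in MCF10A was 7998 ± 844 with siNT, 5176 ± 192 with miR-28 and 5134 ± 432 with miR-708. ITGA6 made up 63.2 ± 2.0% of it with siNT, 50.1 ± 5.2% with miR-28 and 46.2 ± 10.2% with miR-708, while the share of ITGA3 was 12.6 ± 0.7%, 24.1 ± 4.3% and 24.4 ± 5.4%. Both are laminin receptor chains, and ITGA6 remained the larger. In the beta pool of MCF10A, ITGB1 went from 63.6 ± 1.8% to 69.9 ± 3.3% and 73.4 ± 0.9%, and ITGB8 from 13.4 ± 0.9% to 7.87 ± 2.88% and 6.49 ± 0.47%.

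In hTERT RPE-1 the alpha sum was 23370 ± 2401 with siNT, 18002 ± 2246 with miR-28 and 15506 ± 887 with miR-708. ITGA5, the largest share with siNT, went from 47.2 ± 1.7% to 18.1 ± 4.1% and 24.2 ± 2.3%, and ITGA3 from 27.1 ± 1.0% to 50.4 ± 4.1% and 51.9 ± 0.6%. A fibronectin receptor chain was thus the first of the 5 with siNT and a laminin receptor chain with either mimic. ITGAV held 23.2 ± 2.3%, 22.5 ± 5.1% and 7.58 ± 1.31%, and ITGA2 went from 0.67 ± 0.25% to 5.64 ± 2.02% and 9.71 ± 1.15%. The beta sum was 38568 ± 2320, 33200 ± 2226 and 18161 ± 1277, with ITGB1 at 82.1 ± 1.3%, 84.6 ± 1.9% and 80.5 ± 2.1% of it and ITGB5 at 16.4 ± 1.4%, 13.9 ± 1.7% and 17.4 ± 1.6%. With union lengths the ITGA2 shares were 1.13%, 9.59% and 15.1%, that of ITGAV with miR-708 was 4.88%, and those of ITGB5 were 25.5%, 22.0% and 26.7%, while ITGA5 (54.2% with siNT) and ITGA3 (48.4% and 45.3% with the mimics) were still the first of the alpha members. These shares are of the members alone and leave out ITGA11.

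**Figure D4:**
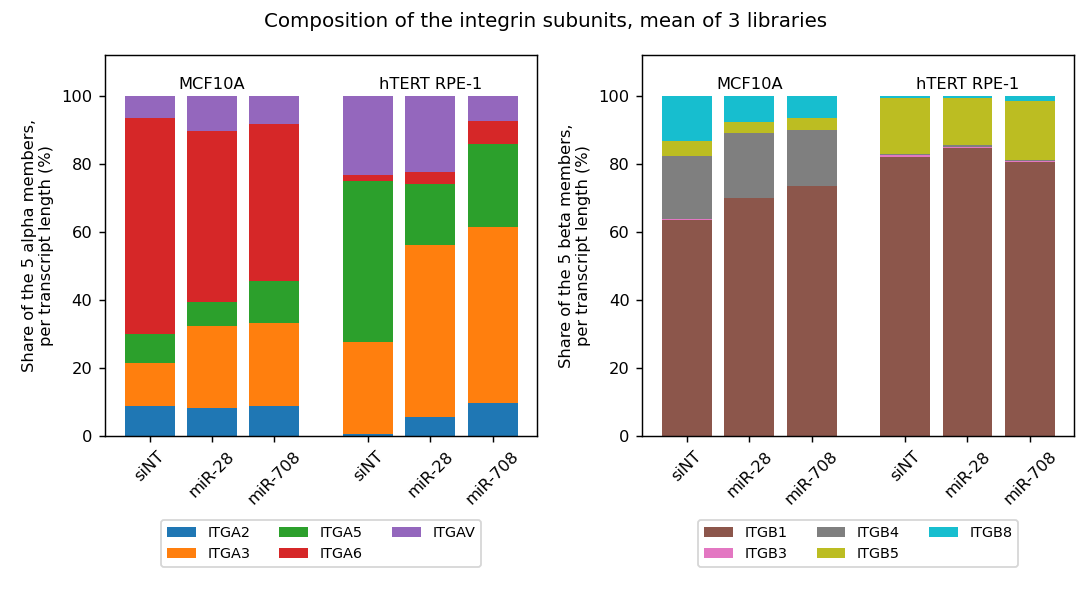
Share of each gene (%) in the summed values per kb of transcript of the 5 alpha members (left) and the 5 beta members (right), as the mean of 3 libraries for each treatment and line. In hTERT RPE-1 the ITGA5 share is 47.2% with siNT and 18.1% and 24.2% with the mimics, and that of ITGA3 is 27.1%, 50.4% and 51.9%.

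Genes that work with the integrins were taken from lists of other subunits, adaptors, kinases, ligands, hemidesmosome partners and surface partners. Of all tested genes in hTERT RPE-1, 23.3% were called higher and 23.5% lower with miR-28, and 30.9% and 31.2% with miR-708. In MCF10A these shares were 10.7% and 12% with miR-28 and 15.5% and 17.3% with miR-708. The counts of every list are to be read beside these shares. In hTERT RPE-1 the list of integrin activators and adhesion adaptors, some of which link beta chain tails to actin, had 4 of 28 tested genes higher and 21 lower with miR-28. With miR-708 1 was higher and 24 lower. The median log2 fold changes of the list were -0.59 and -1.17. TNS3, a tensin, had values of 25334, 26499 and 22753 with siNT, 4390, 4905 and 4638 with miR-28, and 2750, 3452 and 2750 with miR-708, with log2 fold changes of -2.42 and -3.06 (adjusted p = 2.60e-07 and 2.93e-08). TGFB1I1 (-1.53 and -2.84), LIMS2 (-1.18 and -3.39) and TNS1 (-1.54 and -2.45) also fell with both. The same list in MCF10A had 1 higher and 7 lower of 29 with miR-28 and 2 and 8 with miR-708, led by TNS1 (-1.48 and -1.31), TNS4 (-0.70 and -1.10), FERMT1, a kindlin (-0.77 and -0.99), and TNS3 (-0.66 and -0.86). The TNS1 call with miR-708 in MCF10A was lost without siNT replicate 8 (adjusted p = 0.050).

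Among integrin ligands in hTERT RPE-1, 6 of 29 were higher and 5 lower with miR-28 (all genes 23.3% and 23.5%), and 5 higher and 15 lower with miR-708 (all genes 30.9% and 31.2%). The 15 became 7 under library size scaling. LRRC32, which presents latent TGF-β to integrins of ITGAV, had values of 1096, 2239 and 791 with siNT, 101, 166 and 69.9 with miR-28, and 5.49, 12.4 and 5.11 with miR-708, with log2 fold changes of -3.55 and -7.27 (adjusted p = 0.000117 and 4.59e-07). LAMA3, a chain of a laminin of epithelial basement membranes that is bound by ITGA3 and ITGA6, rose with both mimics, by 3.13 and 5.38. LAMA3 measured 16.4, 14.2 and 11.7 with siNT, 52.4, 373 and 113 with miR-28, and 530, 751 and 604 with miR-708. COL1A1, a fibrillar collagen chain, fell too (-2.17 and -3.86), from siNT values of 22655 to 67366. In MCF10A 4 of 22 ligands were higher (7 with the replicate block) and 2 lower with miR-28 (all genes 10.7% and 12%). With miR-708 8 were higher and 4 lower (all genes 15.5% and 17.3%). The 8 became 5 without siNT replicate 7 or miR-708 replicate 8 or 9, and the 4 became 2 without miR-708 replicate 9. FBN1 (1.27 and 2.11) and COL1A1 (1.21 and 0.88) were higher and LTBP1, which tethers latent TGF-β (-0.91 and -1.23), was lower. MFGE8 was higher there too (1.20 and 1.38), but its miR-28 call was lost without siNT replicate 7, miR-28 replicate 8 or miR-28 replicate 9, where adjusted p reached 0.0822.

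Of the hemidesmosome partners in MCF10A, 0 of 6 were higher and 2 lower with each mimic, namely the basal keratins KRT14 and KRT5. Of all tested genes, 10.7% were higher and 12% lower with miR-28 and 15.5% and 17.3% with miR-708. KRT14 went from 32508, 42198 and 33214 to 12599, 10216 and 10013 with miR-28 and to 9341, 7425 and 5602 with miR-708, with log2 fold changes of -1.71 and -2.29 (adjusted p = 0.000262 and 1.26e-05). KRT5 changed by -0.46 and -0.91, and the former (adjusted p = 0.0489) was lost under 12 of the 16 alternatives, among them leaving out any siNT or miR-28 library and miR-708 replicates 8 and 9, with adjusted p of up to 0.143. Both keratins are also among the basal breast markers given above. In hTERT RPE-1 1 of 4 was higher and 0 lower with miR-28 (all genes 23.3% and 23.5%), and 1 higher and 2 lower with miR-708 (all genes 30.9% and 31.2%).

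The adhesion kinases and scaffolds had counts in both directions. In MCF10A 10.7% of all tested genes were higher and 12% lower with miR-28, and 15.5% and 17.3% with miR-708. In MCF10A 4 of 22 were higher and 2 lower with miR-28 and 6 and 5 with miR-708, and FYN, a kinase of the SRC family, rose from 68.2, 50.4 and 73.0 to 197, 358 and 425 and to 405, 490 and 545 (log2 2.28 and 2.90, adjusted p = 0.000402 and 3.90e-05). The 4 higher became 2 without siNT replicate 9 or any of the miR-28 libraries, the 2 lower became 0 without miR-28 replicate 8 or 9 and 1 without siNT replicate 7 or 9, and the 6 and 5 with miR-708 became 3 and 3 without miR-708 replicate 9. In hTERT RPE-1 6 were higher and 6 lower with miR-28 (all genes 23.3% and 23.5%) and 7 and 6 with miR-708 (all genes 30.9% and 31.2%). The 6 higher became 2 without miR-28 replicate 1, the library with 16.7% ribosomal RNA, or without siNT replicate 2, and 3 without siNT replicate 1, miR-28 replicate 3 or miR-708 replicate 1 or the trended variance, the 6 lower with miR-28 became 3 without siNT replicate 2 or under library size scaling, and the 7 became 12 under library size scaling. Those lower included GIT2 (-0.86 and -1.01), BCAR1 (-0.65 and -0.96) and DOCK1 (-0.40 and -0.84). Surface partners and traffic genes gave 1 higher and 1 lower of 16, then 3 and 3, in MCF10A, and 5 higher and 3 lower of 15, then 5 and 5, in hTERT RPE-1. Under library size scaling the miR-708 counts were 5 higher and 0 lower in MCF10A and 8 higher and 1 lower in hTERT RPE-1. The 3 lower with miR-708 in MCF10A became 0 without siNT replicate 7 or miR-708 replicate 8 or 9, 1 without siNT replicate 9 and 5 without miR-708 replicate 7, and in hTERT RPE-1 the 3 lower with miR-28 became 1 without siNT replicate 1 or 2 or miR-28 replicate 1, and the 5 higher became 3 without siNT replicate 1. With the replicate block, which paired siNT with each mimic in MCF10A, the counts there were 3 and 3 with miR-28 and 5 higher with miR-708. SLC3A2, which binds beta chain tails at the membrane, fell in MCF10A with miR-28 (-0.88, adjusted p = 0.00372) and rose in hTERT RPE-1 with miR-708 (1.45, adjusted p = 9.79e-05). Its other calls, -0.57 with miR-708 in MCF10A and 0.69 with miR-28 in hTERT RPE-1, were lost on leaving out single libraries, with adjusted p of up to 0.0822 in MCF10A (without siNT replicates 7 or 9 or miR-708 replicates 8 or 9) and of 0.0549 in hTERT RPE-1 (without siNT replicate 3).

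Of the other integrin subunits, 1 of 10 tested was higher and 2 lower with miR-28 in MCF10A (all genes 10.7% and 12%), and 0 and 2 with miR-708 (all genes 15.5% and 17.3%). ITGB6, an epithelial ITGAV partner that also activates latent TGF-β, measured 2444, 1749 and 2008 with siNT in MCF10A, 1384, 959 and 872 with miR-28, and 1231, 701 and 705 with miR-708 (log2 -0.96 and -1.27, adjusted p = 0.0129 and 0.00187). Its miR-28 call there was lost without miR-28 replicate 8 or 9, with adjusted p of up to 0.0517. ITGA10, a collagen receptor chain, measured 339, 360 and 546 with siNT in MCF10A, 627, 653 and 787 with miR-28, and 189, 256 and 281 with miR-708. It was thus called higher with miR-28 (0.76, adjusted p = 0.0219) and lower with miR-708 (-0.76, adjusted p = 0.0146), and the mimics differed by -1.52 (adjusted p = 0.00177). The first call was lost without siNT replicate 7 or 8 or miR-28 replicate 8 or 9, with adjusted p of up to 0.0789, and the second without siNT replicate 9 (adjusted p = 0.0599). In hTERT RPE-1 ITGB6 was higher with both mimics (log2 1.0 and 1.46), from siNT values of 35.2 to 38.8. There 1 of 8 was higher and 4 lower with miR-28 (all genes 23.3% and 23.5%) and 1 and 6 with miR-708 (all genes 30.9% and 31.2%). Those lower included ITGA4 (-1.33 and -1.35), ITGA7 (-0.70 and -1.27) and ITGA1 (-0.90 and -0.70). ITGA1 with miR-708 was lost under library size scaling (adjusted p = 0.0696), and ITGA11 was at -0.44 (adjusted p = 0.201) and -1.89 (adjusted p = 0.000135). Other genes that the rule for naming took from the lists, with their log2 differences from siNT given for miR-28 and then miR-708, were YES1 (-0.44 and -0.66), GIT2 (-0.39 and -0.43), CDC42 (0.43 and 0.55) and RAB21 (0.48 and 0.35) in MCF10A and ITGAE (-0.85 and -1.38), NEDD9 (-0.48 and -0.998), PLAUR (0.62 and 1.73), CD82 (0.47 and 1.29) and SNX17 (-0.50 and -0.83) in hTERT RPE-1, and of these all but SNX17 lost a call with at least 1 of the mimics under at least 1 alternative. The plot of counts by list gives both lines side by side.

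**Figure D5:**
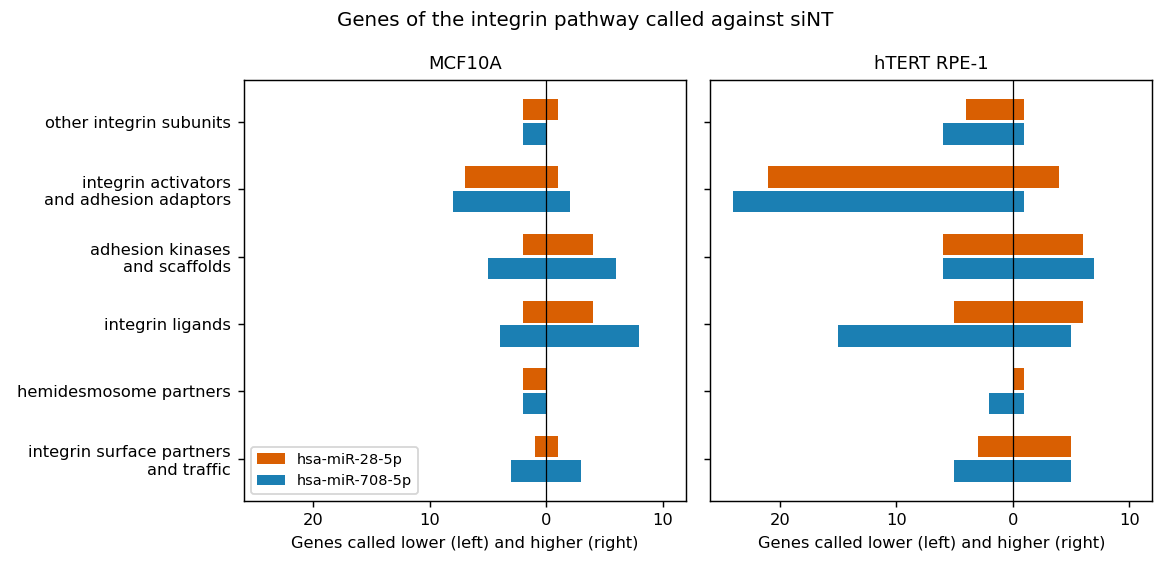
Number of genes called lower (left of 0) and higher (right of 0) against siNT in each list of integrin partners, with miR-28 (orange) and miR-708 (blue) in MCF10A (left panel) and hTERT RPE-1 (right panel). Of the 28 activators and adaptors tested in hTERT RPE-1, 21 and 24 were lower, beside 23.5% and 31.2% of all genes. In MCF10A 7 and 8 of 29 were lower, beside 12% and 17.3% of all genes.

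For the 3 members called in all 4 comparisons with siNT, the genes with the most similar pattern were sought among 10233 genes, by the smaller of the Pearson r over the 9 libraries of each line. For ITGA2 these were ARHGEF2 (r = 0.93), TARS1 (0.91) and PPARGC1B (0.91), for ITGA6 they included NET1 (0.96) and XPOT (0.95), and for ITGB5 they were YIPF3 (0.95), VPS35L (0.94) and LAMC1 (0.93), a laminin chain gene. The libraries of a line share their treatments, so that any gene that responds alike scores high, and these values are descriptions.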

How the data were processed

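Total RNA was collected from MCF10A and hTERT RPE-1 cells, and libraries of polyadenylated RNA were sequenced in paired ends. Per the labels and the methods, the authors trimmed adapters, aligned reads to hg38 with HISAT2 2.1.0 and estimated gene counts on RefSeq in Partek Flow. The values the authors deposited are a signal, estimated counts already divided by size factors for each line, as the median ratio of the libraries (1.0027 and 1.0033) shows. Low values were whole multiples of 1 read, within 0.1 reads, for 87.3 to 91.9% only, so counts were not recovered and no count model was used. The authors' own DESeq2 comparisons (ratio, fold change, p-value and false discovery rate columns) were deposited too and were not used. No column of per-library values was left out (0 columns unused).

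Each line was fitted on its own with limma 3.58.1 (R 4.3.3) on log2(value + 1) with 3 group means and a trended variance, keeping genes that reached 10 in 3 or more of the 9 libraries (14726 genes in MCF10A, 14527 in hTERT RPE-1). Tests were two-sided with Benjamini-Hochberg adjustment over all tested genes, and genes were called at adjusted p below 0.05. Fold changes are on the log2(value + 1) scale. Line differences were the difference of the fold changes over the combined standard error, for 13339 genes. The fit was tested on simulated data. Tables were scaled separately, so levels were not compared between lines. P-values measure the spread between labelled biological replicates, whose separate cultures are not described further.

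The members and gene lists were chosen with earlier results of these data known. From each list, up to 4 genes per line with the largest mean change were eligible to be named, if called with both mimics and averaging 100 or more, and ITGA11 and ITGB6 in hTERT RPE-1 were named after their values were seen. Some genes that the naming rules picked are not reported here. Lengths and positions came from GENCODE 44 (hg38), and the authors' RefSeq models may differ. Groups were taken as paired by replicate number where every correlation of deviations reached 0.1. That held for siNT with each mimic in MCF10A (0.11 to 0.30) and for the mimics with each other in hTERT RPE-1 (0.13 to 0.28). It did not hold for the other group pairs. The main fits had no replicate block, so their p-values and counts did not use the pairing. Between the mimics in MCF10A the correlations were 0.12, 0.025 and 0.18, so pairing there was not settled. The labels give the same replicate numbers to every treatment of a line. Alternatives were a replicate block, pseudocounts of 0.5 and 10, no filter, library size and upper quartile scaling, no trend, another gene length and leaving out each library.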

Additional observations from a re-analysis of the deposited data

Results flagged for a closer look

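The effect of a mimic differed between the lines for 3 members with miR-28 and 8 with miR-708, by the test of the difference of the log2 fold changes (hTERT RPE-1 minus MCF10A, limma standard errors, adjusted over 13339 genes). Of all these genes, 23.4% differed with miR-28 and 39.8% with miR-708. The members that differed are listed here. With miR-28 these were ITGA2 (3.39, adjusted p = 1.77e-06), ITGA6 (1.54, adjusted p = 0.000355) and ITGAV (-0.49, adjusted p = 0.0483). With miR-708 they were ITGA2 (3.96, adjusted p = 7.58e-08), ITGA6 (2.46, adjusted p = 5.46e-07), ITGB8 (1.24, adjusted p = 0.00181), ITGB5 (-0.57, adjusted p = 0.00775), ITGB1 (-1.16, adjusted p = 0.000190), ITGB4 (-1.24, adjusted p = 5.82e-05), ITGA5 (-1.36, adjusted p = 0.00127) and ITGAV (-1.91, adjusted p = 3.39e-07). For ITGA2 and ITGA6 the direction itself was opposite, and for ITGA2 all 6 mimic libraries lay below siNT in MCF10A and all 6 above it in hTERT RPE-1. Line, replicate set and normalisation were all different between the tables and cannot be told apart here. The groups of 3 libraries were too small for a check of single outlying libraries.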

How the results depend on the processing

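Of 75 member fold changes and line differences, 43 kept their direction and their side of the threshold under all the alternatives. Of the 43 that were called, 32 were called under all of them and 0 reversed. The number of members called with miR-708 in MCF10A went from 5 to 3 without the trended variance and ranged from 2 to 6 on leaving out each library. Over all genes those calls went from 4835 to 4337 and ranged from 3174 to 5483. For the members the other ranges on leaving out a library were 4 to 5 with miR-28 and 0 to 1 between the mimics (1 without miR-708 replicate 7) in MCF10A. In hTERT RPE-1 they were 4 to 7 with miR-28, 8 to 9 with miR-708 and 5 to 7 between the mimics. For the line differences with miR-28 the range was 2 to 4. With the replicate block, the members that differed between the mimics in MCF10A went from 0 to 2, ITGA5 (0.79, adjusted p = 0.00281) and ITGAV (-0.36, adjusted p = 0.0464), and all genes from 228 to 643. Whether the replicate numbers pair these groups was not settled, with correlations of 0.12, 0.025 and 0.18. Between groups taken as paired, the block changed the call of ITGB4 with miR-708 in MCF10A and of no other member. In hTERT RPE-1 the share of ITGA6 and ITGA3 in the siNT alpha sum was 2.65% and 25.8% when lengths were the union of all annotated exons, and that of ITGB1 in the beta sum 72.0%, against 69.3%, 8.86% and 47.5% in MCF10A. Precision was limited by 3 libraries per group, and for ITGB3 in MCF10A by depth.

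Scaling by library size moved the median of all genes to 0.12 and 0.14 with the mimics in MCF10A, to 0.32 with miR-708 in hTERT RPE-1 and to 0.23 between the mimics there. It also moved the percentage of calls that were higher from 47.1 to 66.1 and 47.3 to 67.6 in MCF10A, from 49.7 to 71.8 with miR-708 in hTERT RPE-1 and from 46.5 to 84.8 between the mimics there. Differences that turned sign were all uncalled. Under library size scaling these were ITGB1 (0.11) and ITGB4 (0.00613) with miR-28 in MCF10A and ITGA3 between the mimics (0.0260 in MCF10A, 0.0689 in hTERT RPE-1), and ITGB1 was 0.0709 under upper quartile scaling. On leaving out a library the ranges with miR-28 were -0.0668 to 0.11 for ITGB1, -0.21 to 0.00595 for ITGB4 and -0.00939 to 0.0863 for ITGAV in MCF10A, and -0.10 to 0.10 for ITGB4 in hTERT RPE-1. With miR-708 they were -0.00304 to 0.0817 for ITGB1 and -0.37 to 0.0592 for ITGA5 in MCF10A, and -0.20 to 0.22 for ITGB8 in hTERT RPE-1. Between the mimics they were -0.0703 to 0.11 for ITGB1, -0.13 to 0.12 for ITGA3 and -0.0208 to 0.22 for ITGA2 in MCF10A, and -0.0351 to 0.47 for ITGA5 in hTERT RPE-1. The line difference ranged from -0.000853 to 0.21 for ITGB4 with miR-28 and from -0.0690 to 0.18 for ITGA3 with miR-708. The causes were not tested.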
